A study of Mus musculus with 6 samples.

Results

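The small nucleolar RNAs (snoRNAs) described here are the 62 genes measured under a numbered snoRNA symbol, of 30701 genes tested in all. They comprised 44 C/D box snoRNA genes (symbols Snord followed by a number) and 18 H/ACA box snoRNA genes (Snora followed by a number). A row of the array counted only where the platform annotation gave it a single gene, and the row with the highest mean stood for a symbol with several. Genes of the olfactory receptor family (Olfr followed by a number, 1229 genes), which serve smell neurons, were set beside them as rows with little signal of their own in T cells. The RNA came from mouse CD4+ T cells sorted as naive, activated through CD3 and CD28 and cultured for 3 days under conditions that favour TH17 cells, the helper T cells that secrete IL-17. One group of 3 cultures had no glutamine in the medium, and the other group of 3 cultures had glutamine. Both received 10% serum, 20 ng/ml of IL-6 and of IL-23, 1.25 ng/ml of TGF-beta, and 10 ug/ml of blocking antibodies to IL-4, IL-12 and IFN-gamma. The labels call the samples biological replicates and do not state that separate mice were used, so the p-values speak only of the spread between these arrays.

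SnoRNAs are short non-coding RNAs that guide the chemical modification of ribosomal RNA in the nucleolus. C/D box snoRNAs pair with ribosomal RNA and direct the methyltransferase fibrillarin to methylate the ribose, and H/ACA box snoRNAs direct the pseudouridine synthase dyskerin to turn uridine into pseudouridine. A few members of both classes act in the cleavage of the ribosomal precursor instead of, or besides, its modification. In mammals most snoRNAs are cut out of the introns of host genes, many of which encode ribosomal proteins, translation factors or nucleolar proteins, and only a few have a promoter of their own. Glutamine supplies nitrogen for nucleotides and carbon for the TCA cycle, and the comparison addresses which transcripts depend on it in TH17 cultures.

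Values are log2 levels on the deposited scale, and a change is the group mean without glutamine minus that with glutamine. The arrays were not on an equal footing. Array medians were 4.33, 4.38 and 4.35 without glutamine and 4.20, 4.18 and 4.21 with glutamine, so class counts, class medians and the 3 calls among the snoRNAs are also given with each array centred on its median. Centring moved the median change of all genes tested by more than 0.1, with a median of 0.06 as deposited and -0.10 centred, and the calls of the olfactory receptor genes, 46 higher and 11 lower as deposited, became 4 higher and 38 lower. As deposited, 2856 genes were higher and 3989 lower without glutamine in limma's test with Benjamini-Hochberg adjustment (threshold 0.05), against 1216 higher and 6128 lower with centred arrays. All 7 measured CD4 T cell markers stood above the background limit, a level of 4.41 set at the 95th percentile of olfactory receptor means, while Cd8a and the 3 measured B cell markers stood below it. The other CD8 marker, Cd8b1, stood above it and fell by 0.71 without glutamine (limma, adjusted p = 0.0117). The 3 measured TH17 markers were lower without glutamine, with a median change of -4.83. Of the 7 CD4 markers, Cd3d rose by 0.88 and Cd5 by 0.51 (limma, adjusted p = 0.0174 and 0.0118), and 5 did not pass. Among 4 myeloid markers, Lyz2 fell by 1.66 and Cd68 rose by 1.58 without glutamine (limma, adjusted p under 0.05). The other myeloid markers, Csf1r and Itgam, stood below the limit and did not pass. Of 3 natural killer markers only Eomes stood above it, and none passed. The part of other cells in the snoRNA values was not tested. In bulk RNA fewer cells of a type and less RNA per cell cannot be told apart.

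Most snoRNAs gave a clear signal, and few of them differed between the groups beyond the spread of the arrays. The background limit was passed by 42 of 44 C/D and 17 of 18 H/ACA genes; Snord64, Snord85 and Snora35 lay under it. Without glutamine 3 C/D genes fell and 0 rose by limma's adjusted p, and the others did not pass, where 13.0% of all genes tested fell and 9.30% rose. None of the 18 H/ACA genes passed in either direction by limma's adjusted p (0 higher, 0 lower). At an unadjusted p under 0.05, limma gave 1 higher and 5 lower C/D genes, and 0 higher and 4 lower H/ACA genes, beside 18.5% of all genes higher and 17.6% lower. With centred arrays, the C/D count was again 0 higher and 3 lower and the H/ACA count became 0 higher and 1 lower (Snora78, named after its values were seen), beside 3.96% of all genes higher and 20.0% lower. Over the genes above the background limit alone, 3 of 42 C/D and 1 of 17 H/ACA genes fell and 0 rose, beside 25.1% of those genes falling and 15.5% rising. By adjusted p, the share of snoRNAs called was below that of all genes in each of these fits, whereas at unadjusted p the 4 H/ACA genes of 18 that were lower made up a larger share than the 17.6% of all genes.

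The point estimates leaned toward lower levels without glutamine in both classes. The median change was -0.28 over the C/D genes, of which 29 were negative and 15 positive, and -0.41 over the H/ACA genes, of which 16 were negative and 2 positive. With centred arrays the class medians were -0.43 and -0.57. The median changes of the C/D and H/ACA classes differed by 0.13. Between arrays of a group, the difference of the class median levels had an SD of 0.16, a related but not equal measure. The SD of the class median level itself between arrays of a group was 0.59 for C/D and 0.65 for H/ACA, larger than either median change. It was 0.03 for the olfactory receptor genes.

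**Figure D1:**
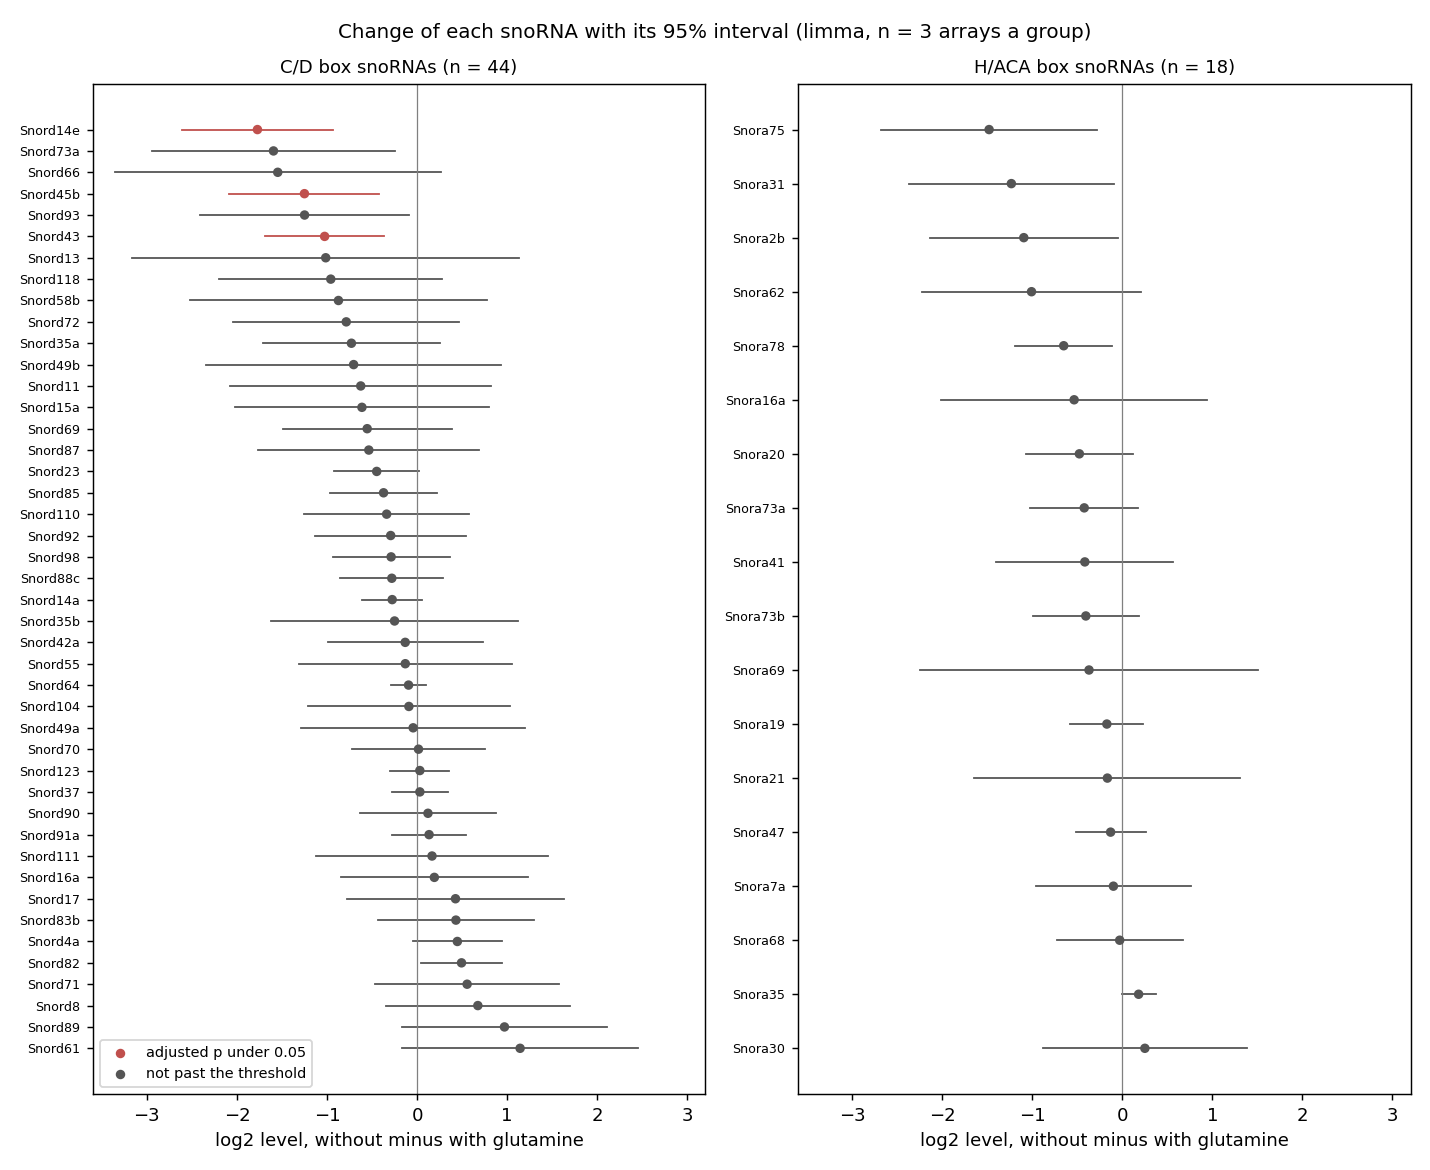
Change of each snoRNA gene (log2, mean without glutamine minus mean with glutamine) with its 95% interval from limma, C/D and H/ACA classes apart, n = 3 arrays per group. The intervals of 52 of the 62 genes hold 0, and the genes that passed the adjusted threshold are all C/D genes below 0.

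The 3 falls that passed were Snord14e, Snord43 and Snord45b. Snord14e is a copy of the U14 snoRNA, which in yeast is needed to make the RNA of the small ribosomal subunit. Its level was 10.75, 11.10 and 10.10 in the 3 cultures without glutamine, against 13.06, 11.91 and 12.30 in the 3 cultures with glutamine. Every culture without glutamine lay below every culture with it. The means were 10.65 ± 0.51 without and 12.43 ± 0.58 with glutamine (SD, n = 3 each), a change of -1.77 with a 95% interval of -2.61 to -0.93 (limma, adjusted p = 0.0146).

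Snord43, a guide of ribose methylation, stood at 10.39, 9.99 and 9.55 without glutamine and at 11.50, 10.67 and 10.83 with glutamine. The groups did not overlap, and the change was -1.03, with an interval of -1.69 to -0.36 (limma, adjusted p = 0.0409). Snord45b, another methylation guide, stood at 9.96, 10.35 and 9.44 without glutamine and at 11.87, 10.72 and 10.90 with glutamine, again without overlap. Its change was -1.25, with an interval of -2.08 to -0.42 (limma, adjusted p = 0.0455). The calls of these 2 genes were close to the threshold: Snord43 lost its call when any array other than replicate 1 without glutamine was left out (adjusted p between 0.0544 and 0.112, limma), and Snord45b lost it when any 1 array was left out (0.0541 to 0.124). The call of Snord14e held in each of those fits. With centred arrays the changes were -1.93 for Snord14e, -1.18 for Snord43 and -1.40 for Snord45b, and all 3 passed (limma, adjusted p = 0.00816, 0.0232 and 0.0263).

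Another pair of members had 3 cultures without glutamine entirely below the 3 with glutamine yet missed the adjusted threshold. Snord73a, chosen after its values were seen, stood at 9.21, 9.41 and 7.68 without glutamine and at 11.29, 9.74 and 10.05 with glutamine, a change of -1.59 (limma, adjusted p = 0.091). Snora31, an H/ACA guide, stood at 9.12, 9.58 and 8.18 without glutamine and at 11.07, 9.59 and 9.91 with glutamine, a change of -1.23 (limma, adjusted p = 0.115). In all, groups without overlap were found with the cultures lacking glutamine below in 4 C/D genes and 1 H/ACA gene, where 18.8% of all genes tested showed that order. The opposite order was seen in 0 C/D genes and in 1 H/ACA gene (Snora35, under the background limit), where 25.0% of all genes showed it.

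The spread of the snoRNAs between arrays of one group was much wider than that of most genes. The pooled SD within groups had a median of 0.66 over the C/D genes and 0.60 over the H/ACA genes, against 0.13 over all genes tested, 0.14 over all genes above the background limit and 0.16 over the olfactory receptor genes. Among the 100 genes with the widest spread, 21 were snoRNA members (16 C/D and 5 H/ACA), although members made up 0.202% of the genes, while 20 were predicted snoRNA genes, which carry no numbered snoRNA symbol, and 0 were olfactory receptor genes. Snord13 ranked first of all genes, with a pooled SD of 1.42. Related small RNAs also spread more than most genes. The median was 0.34 over 6 small Cajal body RNAs, described below, and 0.27 over 461 predicted snoRNA genes above the background limit. Rpph1, another small RNA, had SDs of 0.79 without and 0.75 with glutamine, while Rn7sk had 0.05 and 0.09. The 95% intervals of the changes were accordingly wide, with half-widths between 0.19 and 2.15 and a median of 0.98 over the 62 members. Of the 11 members with a change of -1 or below, 3 passed the test.

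The snoRNAs did not vary independently of each other: 1 array of each group stood apart from its replicates in most of them. Replicate 1 with glutamine was the highest of its group in 39 of 44 C/D genes (88.6%) and 14 of 18 H/ACA genes (77.8%), and in 40.4% of all genes. Replicate 3 without glutamine was the lowest of its group in 40 of 44 C/D genes (90.9%) and 16 of 18 H/ACA genes (88.9%), and in 40.1% of all genes. As deviations from each gene's mean over the 6 arrays, the C/D medians were 0.08, 0.37 and -0.84 without glutamine and 0.63, -0.12 and -0.13 with glutamine. The H/ACA medians were -0.18, 0.23 and -0.61 without glutamine and 0.74, -0.24 and 0.21 with glutamine. The same arrays did not stand apart in the olfactory receptor genes, whose medians were 0.03, 0.06 and 0.03 without and -0.03, -0.10 and -0.02 with glutamine. Over the 16517 genes above the background limit, medians were 0.01, -0.03 and -0.06 without and 0.08, 0.01 and -0.01 with glutamine. The same 2 arrays were thus the lowest and the highest there, within a far narrower range. What sets these 2 arrays apart was not tested.

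**Figure D2:**
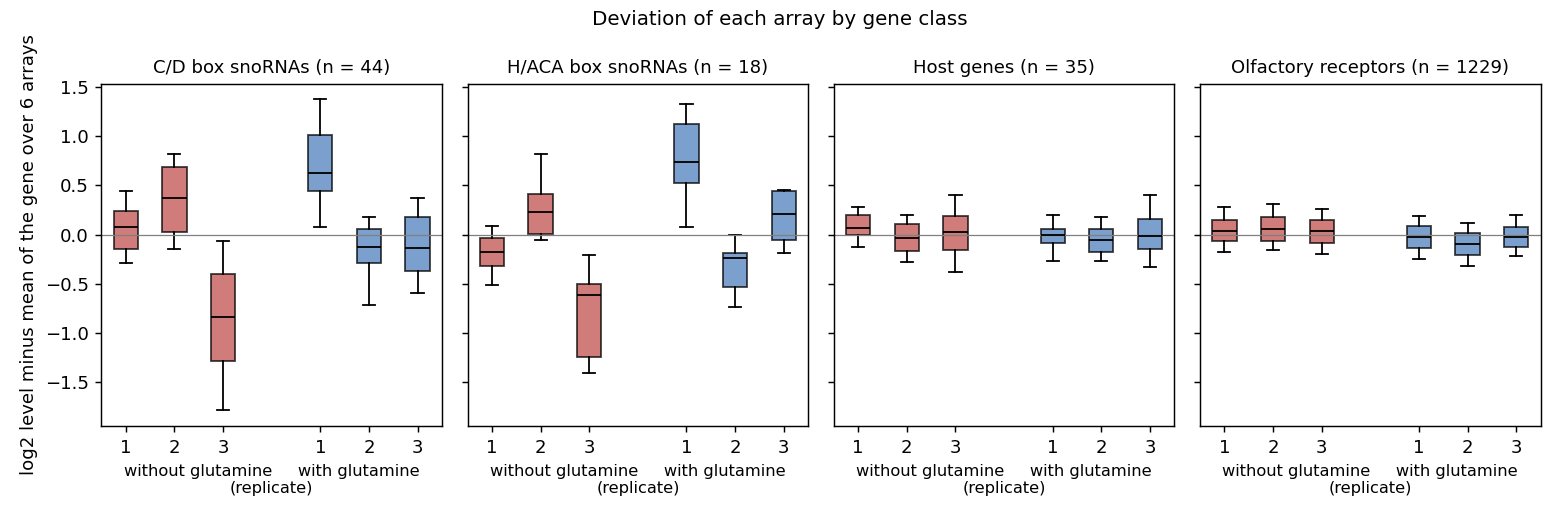
Deviation of each gene from its own mean over the 6 arrays (log2), by array and class, with arrays without glutamine left of those with glutamine, a line at the median, boxes over the quartiles and whiskers to the lowest and the highest decile. In both snoRNA classes the median of replicate 3 without glutamine is lowest (-0.84 for C/D, -0.61 for H/ACA) and that of replicate 1 with glutamine is highest (0.63 and 0.74), while the olfactory receptor and host gene medians stay near 0.

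Both features of the pattern were present in 38 C/D and 14 H/ACA genes. The 10 members without it were Snord4a, Snord64, Snord82, Snord91a, Snord98, Snord123, Snora19, Snora35, Snora47 and Snora75. Of the 12 measured RNAs in a list of other small RNAs, 11 showed it too. It was present in 33.6% of 461 predicted snoRNA genes above the background limit and in 18.3% of all genes tested. Of all genes above that limit, 24.3% had it. Fbl, Nop58, Dkc1, Gar1, Nhp2 and Nop10, which encode core proteins bound to snoRNAs, showed it as well. Some but not all of the listed genes for snoRNA assembly did so too. In microRNA genes it was present in 6.15% of 910, with a median deviation of -0.19 in replicate 1 with glutamine, so it was not shared by all classes of short RNA. Rmrp, the RNA of the nuclease that cleaves the ribosomal precursor, stood at 16.33, 16.65 and 15.93 without glutamine and at 16.75, 15.71 and 15.84 with glutamine. Rpph1, the RNA of ribonuclease P, stood at 13.71, 14.67 and 13.10 without glutamine and at 15.00, 13.61 and 13.82 with glutamine. In both RNAs replicate 3 was the lowest of the cultures without glutamine and replicate 1 the highest of those with glutamine, although Rmrp was lowest of all in replicate 2 with glutamine. Neither differed between groups beyond the threshold by limma (adjusted p = 0.671 for Rmrp and 0.667 for Rpph1). Rn7sk, a regulator of transcription elongation, also had replicate 3 lowest without glutamine and replicate 1 highest with it. Its range was narrow, 19.02 to 19.13 without and 18.89 to 19.06 with glutamine.

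Because replicate 3 without glutamine was low and replicate 1 with glutamine was high, leaving both out, a choice made after the values were seen, turned the direction of the C/D class. As the arrays were picked by the snoRNA values themselves, this moves the changes upward by construction and is given only as a description. The median change became 0.31 over the C/D genes, with 31 positive and 13 negative, and -0.02 over the H/ACA genes, with 8 positive and 10 negative. Over all genes the median change was 0.07 in that fit, close to the 0.06 with all arrays. Of the 62 members, 23 had a negative change with all arrays and a positive one in that fit, 1 had the reverse, 22 were negative in both fits and 16 were positive in both. Leaving out only replicate 3 without glutamine gave a C/D median of 0.05, and leaving out only replicate 1 with glutamine gave -0.09. The sign of the C/D median thus differed with the arrays kept, and no direction of the class is read from these fits.

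**Figure D3:**
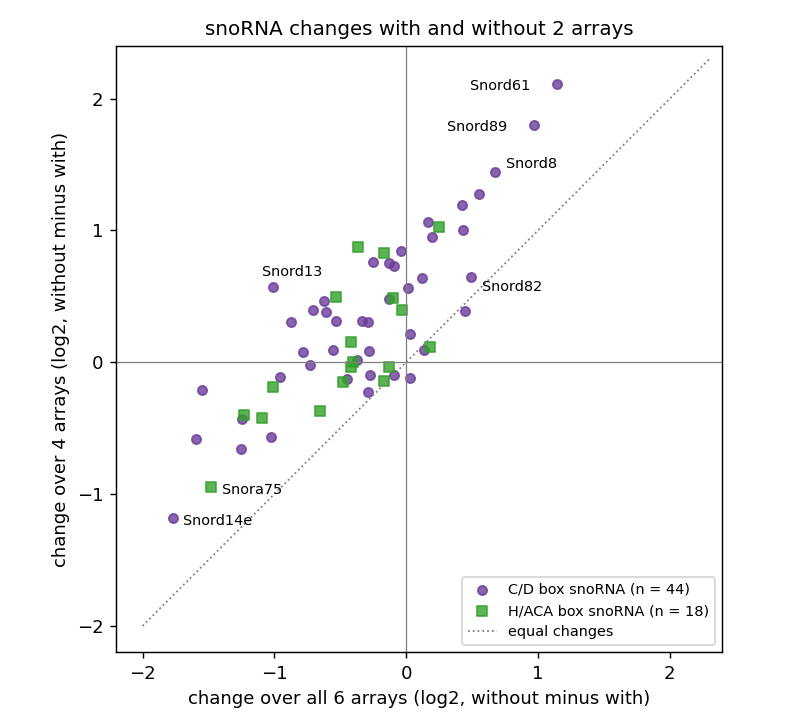
Change of each snoRNA gene (log2, without minus with glutamine) over all 6 arrays on one axis and over the 4 arrays that remain without replicate 3 of the cultures lacking glutamine and replicate 1 of the cultures with it on the other. Of the 62 genes, 23 lie below 0 with all arrays and above 0 with 4 arrays, and Snord14e is below 0 in both.

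On the 4 arrays, Snord14e had a change of -1.18, Snord43 one of -0.57 and Snord45b one of -0.66, so all 3 remained negative. Limma's adjusted threshold was passed there by 8 C/D genes as higher, 1 C/D gene (Snord14e) as lower and 0 H/ACA genes, beside 4.41% of all genes higher and 6.17% lower. The choice of arrays favours higher values of these very genes and removes their spread, so these counts are no test and nothing is read from them.

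Over all 6 arrays, Snord61 and Snord89, both chosen after their values were seen, had the largest positive changes among the members. Snord61, a methylation guide, stood at 15.02, 14.74 and 13.36 without glutamine and at 14.14, 13.02 and 12.52 with glutamine, so the groups overlapped. Its change was 1.14 over all arrays, with an interval of -0.16 to 2.45 (limma, adjusted p = 0.182). Snord89 stood at 13.23, 13.73 and 12.28 without glutamine and at 12.96, 11.52 and 11.84 with glutamine. Its change was 0.97 over all arrays (limma, adjusted p = 0.191), and its groups overlapped as well. Neither gene passed the test on all arrays.

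The members could also be read against each other by centring each array on the median deviation of all 62, a scaling likewise added after the values were seen, which gives changes relative to the snoRNAs and not to the cell. On that scale Snord14e changed by -1.49 (limma, adjusted p = 0.0284) and Snord61 by 1.43 (limma, adjusted p = 0.0409), and these were the only members to pass, beside 0.853% of all genes lower and 0.945% higher. Groups without overlap were then found above in 9 C/D genes and 1 H/ACA gene, where 6.94% of all genes showed that order. They were found below in 7 C/D genes and 3 H/ACA genes, where 1.77% showed it. This scaling takes the shared spread of the members out of them and puts it into all other genes. It therefore sets members apart from these shares by construction, so the calls and counts on this scale are a description and no test.

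SnoRNAs with a known place in the processing of the ribosomal precursor did not pass the test, apart from Snord14e. Snord118 (U8), which in vertebrates acts in the maturation of the RNAs of the large subunit, stood at 7.36, 8.28 and 6.65 without glutamine and at 9.30, 7.76 and 8.10 with glutamine, a change of -0.96 (limma, adjusted p = 0.229). Snord13 (U13), which in human cells is needed for the acetylation of the small subunit RNA, stood at 9.35, 10.18 and 7.45 without glutamine and at 11.64, 9.45 and 8.93 with glutamine. Its change was -1.01, with an interval of -3.16 to 1.14 (limma, adjusted p = 0.451). Both genes overlapped between the groups, and the extremes were again the arrays that stood apart. A dimmer row of Snord118, with a mean of 3.62 under the background limit, had the opposite sign (0.34), while the rows of Snord13, Snord58b and Snora73b, the other members with several rows, had negative changes on each row.

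The U17 snoRNAs Snora73a and Snora73b, H/ACA members that act in small subunit processing, had like values. Snora73a stood at 12.85, 13.12 and 12.52 without glutamine and at 13.71, 12.80 and 13.25 with glutamine, a change of -0.42 (limma, adjusted p = 0.271). Snora73b had a change of -0.40 (limma, adjusted p = 0.282). The 2 RNAs are close in sequence, so signal may be shared between their probes. The same holds for the U14 copies: Snord14a stood at 10.22, 10.11 and 10.09 without glutamine and at 10.72, 10.33 and 10.19 with glutamine, a change of -0.28 with an interval of -0.61 to 0.06 (limma, adjusted p = 0.202). Snord14a showed less spread than Snord14e, and its change was smaller, but the difference between the copies was not tested.

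Members with no adjusted p under 0.05 made up the rest of both classes. Among C/D genes, Snord35a, cut from an intron of the ribosomal protein gene Rpl13a, had a change of -0.73 (limma, adjusted p = 0.247), Snord69 one of -0.55, Snord42a one of -0.13 and Snord16a one of 0.19. Snord49a and Snord49b, which lie in the same non-coding host, had changes of -0.04 and -0.70, and the interval of Snord49a ran from -1.28 to 1.20 (limma, adjusted p = 0.96). Among H/ACA genes, Snora62 had a change of -1.01 (limma, adjusted p = 0.202), Snora16a one of -0.53 and Snora21 one of -0.17. Snora75, chosen after its values were seen, stood at 11.31, 12.01 and 10.65 without glutamine and at 13.19, 11.79 and 13.42 with glutamine, a change of -1.48 (limma, adjusted p = 0.0817). Intervals of this width include both no change and a loss or gain of a whole log2 unit for many of these genes.

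Host genes were taken as the genes whose span in the RefSeq table of GRCm38.p6 holds the snoRNA; that table gives no strand, so a gene on the opposite strand could be among them. A spanning gene was found for 59 of the 62 members, and Snord13, Snord89 and Snord118 had none. Of 59 distinct spanning genes, 35 had a row of their own, which gave 37 pairs for 33 snoRNAs. Of the 35 hosts, 6 rose and 5 fell without glutamine by limma, beside 9.30% of all genes rising and 13.0% falling. As 31 of the hosts stood above the background limit, the genes above it are the closer comparison. Of those 16517 genes, 2246 rose and 3890 fell in the same fit. The hosts did not share the spread of their snoRNAs: their pooled SD had a median of 0.13. Replicate 1 with glutamine was the highest of its group in 10 of the 35, and replicate 3 without glutamine the lowest of its group in 14.

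The direction of a snoRNA went with that of its host about as often as not, with the same sign in 19 of the 37 pairs and opposite signs in 18. Spearman's rho over the pairs was 0.02 and Pearson's r -0.09, given as a description, since pairs of one host share it and all pairs share the arrays. The hosts named here, and Snora20 and Snord8 beside them, were chosen after their values were seen. Snord14e lies in Hspa8, the gene of a constitutive heat shock protein, whose change was -0.08 (limma, adjusted p = 0.414). Snord82 and Snora75 both lie in Ncl, the gene of nucleolin, and all 3 genes were chosen after their values were seen. Ncl stood at 16.41, 16.08 and 16.12 without glutamine and at 16.18, 16.22 and 16.18 with glutamine (limma, adjusted p = 0.955). Its C/D member Snord82 stood at 15.23, 15.53 and 15.44 without and at 15.26, 14.94 and 14.52 with glutamine, a change of 0.49 (limma, adjusted p = 0.111), opposite in sign to that of Snora75.

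The pair with the most unlike values was Snord61 and Rbmx, the gene of an RNA-binding protein that acts in splicing, chosen after its values were seen. Rbmx stood at 10.48, 10.40 and 10.45 without glutamine and at 11.58, 11.57 and 11.84 with glutamine. All cultures without glutamine lay below all cultures with it, and the change was -1.22 (limma, adjusted p = 0.000471), against 1.14 for Snord61. The fall of Rbmx passed under each of the 16 alternatives run for it (adjusted p between 0.000235 and 0.0131, limma). Of the 11 hosts that passed, 6 had the sign of their snoRNA and 5 the opposite sign, and none of the snoRNAs in these pairs passed. Tcp1 had a change of -0.52 (limma, adjusted p = 0.0125) with Snora20 at -0.48, and Chd8 rose by 0.44 (limma, adjusted p = 0.0344) with Snord8 at 0.68. On the opposite side, Rpsa rose by 0.48 (limma, adjusted p = 0.0321) with Snora62 at -1.01, and Snx5 had a change of -0.56 (limma, adjusted p = 0.0134) with Snord17 at 0.43.

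**Figure D4:**
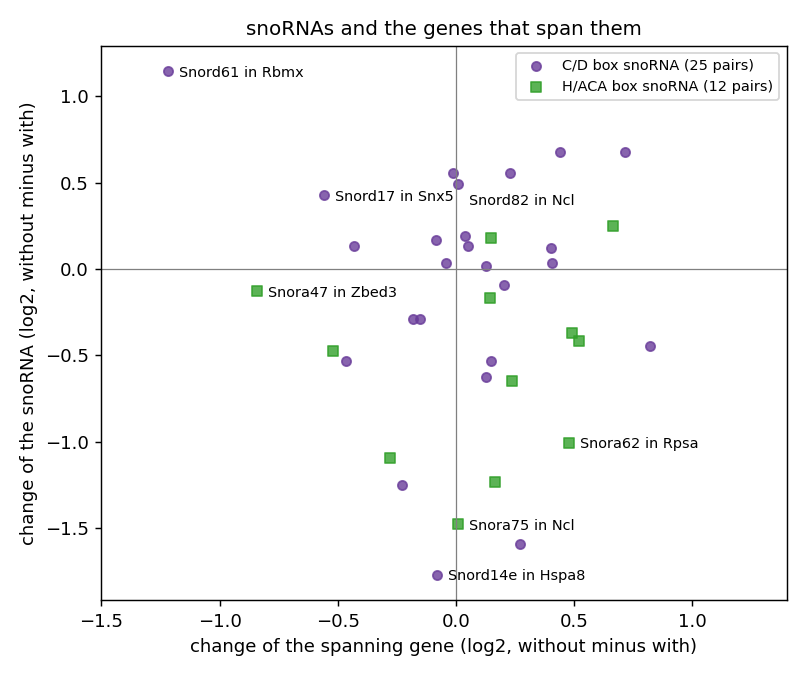
Change of each snoRNA (log2, without minus with glutamine) against the change of the gene whose span holds it, for 37 pairs, C/D and H/ACA members marked apart. The points show no common slope (19 pairs of the same sign, 18 of opposite signs), and Snord61 with Rbmx lies far into the quadrant of opposite signs.

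The proteins that bind and assemble snoRNAs were taken from lists of their core particles and maturation factors. In the C/D core, 0 of 2 measured genes passed: Fbl, the methyltransferase fibrillarin, had a change of 0.06 (limma, adjusted p = 0.799) and Nop58 one of 0.13 (limma, adjusted p = 0.329). The rows of Nop56 and Snu13 name several genes and were not used here. In the H/ACA core, 0 of 4 genes passed: Dkc1, the pseudouridine synthase dyskerin, had a change of -0.29, Gar1 one of -0.33, Nhp2 one of -0.13 and Nop10 one of 0.30. With centred arrays Gar1 passed as lower (limma, adjusted p = 0.0409).

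Assembly and maturation factors showed falls where the core proteins did not pass the test. Of 15 genes, 6 fell and 0 rose without glutamine, with a median change of -0.31, beside 13.0% of all genes falling. All 15 stood above the background limit, and 3890 of the 16517 genes above it fell in that fit. With centred arrays 10 of the 15 fell, beside 20.0% of all genes and 5607 of those 16517. Znhit3 and Nufip1, which bring the C/D core proteins together, were among them. Znhit3 stood at 6.53, 6.45 and 6.35 without glutamine and at 7.68, 7.44 and 7.30 with glutamine, a change of -1.03 (limma, adjusted p = 0.00169). Nufip1 stood at 11.12, 11.33 and 11.17 without glutamine and at 12.02, 11.93 and 11.77 with glutamine, a change of -0.70 (limma, adjusted p = 0.00386). In both genes the groups lay apart, and the SDs within groups were smaller than the change. They were 0.09 without and 0.19 with glutamine for Znhit3, and 0.11 and 0.13 for Nufip1. Znhit3 had replicate 3 lowest without glutamine and replicate 1 highest with it, as most snoRNAs did.

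The other falls included genes of the R2TP chaperone complex, which loads snoRNA proteins. Rpap3 stood at 9.06, 9.09 and 8.96 without glutamine and at 9.59, 9.63 and 9.48 with glutamine, a change of -0.53 (limma, adjusted p = 0.00453). The ATPase genes Ruvbl2 and Ruvbl1 had changes of -0.64 (limma, adjusted p = 0.0138) and -0.52 (limma, adjusted p = 0.0274), and Pih1d1, the remaining member of the complex, one of -0.19. Ncbp2, a cap-binding protein gene, changed by -0.44 (limma, adjusted p = 0.0201). The calls of Ruvbl1, Ruvbl2 and Ncbp2 were lost when single arrays were left out: Ruvbl1 without any array but replicate 1 lacking glutamine or replicate 3 with glutamine (adjusted p between 0.0535 and 0.0946, limma), Ncbp2 without replicate 2 or 3 lacking glutamine or replicate 2 with glutamine (0.0557 to 0.0658) and Ruvbl2 without replicate 2 with glutamine (0.0516). The H/ACA assembly factors Naf1 and Shq1 each had a change of 0.08. Without the pair of arrays that stood apart on the snoRNAs, 2 of the 15 fell (Znhit3 and Nufip1), beside 6.17% of all genes. In that fit on 4 arrays, 1875 of the 16517 genes above the background limit fell.

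**Figure D5:**
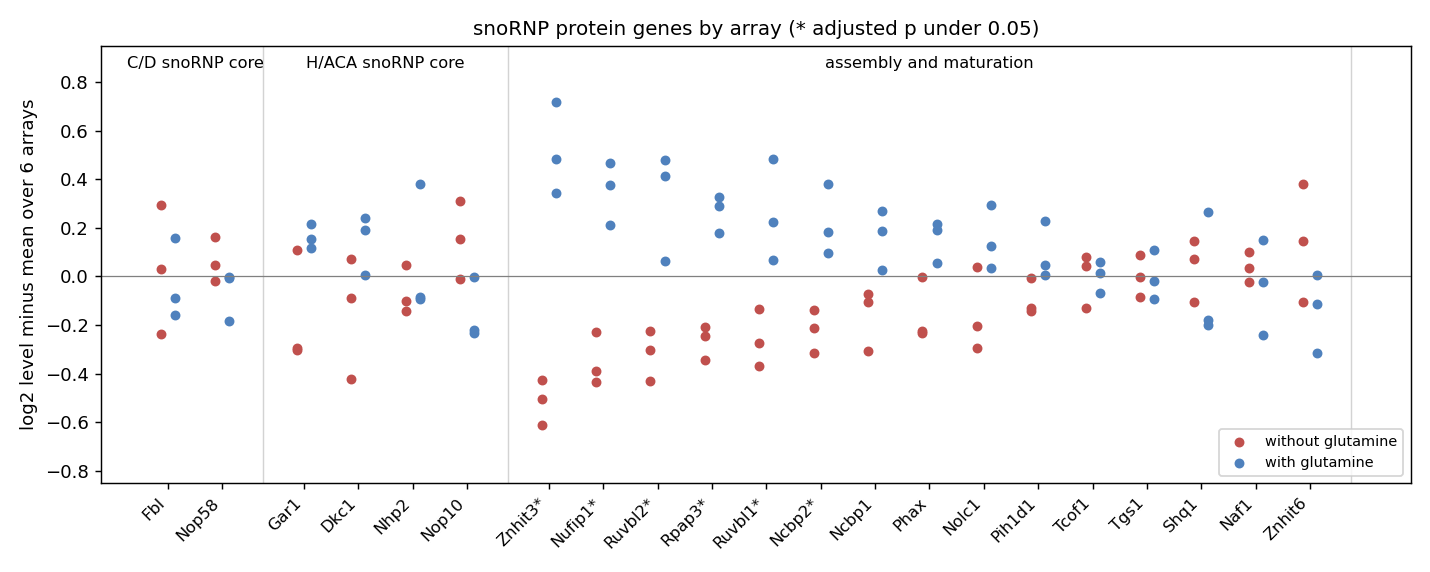
Level of each snoRNA particle and assembly gene in each culture as a deviation from the gene's mean over the 6 arrays (log2), with the 3 cultures without glutamine left of the 3 with glutamine and stars on genes with a limma adjusted p under 0.05. For Znhit3, Nufip1 and Rpap3 all points without glutamine lie below all points with it, whereas the points of Fbl and Nop58 overlap.

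The small Cajal body RNAs, which use the same boxes but guide modification of spliceosomal RNAs, held both directions. Of 6 measured, Scarna2 rose and Scarna8 fell, both named after their values were seen, beside 9.30% of all genes rising and 13.0% falling. Scarna2 stood at 8.90, 9.14 and 8.66 without glutamine and at 8.33, 7.68 and 7.81 with glutamine, a change of 0.96 (limma, adjusted p = 0.0169). Scarna8 stood at 5.17, 5.09 and 4.94 without glutamine and at 5.38, 5.57 and 5.63 with glutamine, a change of -0.46 (limma, adjusted p = 0.0195). In both RNAs the groups lay apart, but each lost its call in 3 of the 6 fits that left out 1 array: Scarna2 without replicate 1 or 2 lacking glutamine or replicate 2 with glutamine (limma, adjusted p between 0.0521 and 0.0622), and Scarna8 without replicate 2 or 3 lacking glutamine or replicate 2 with glutamine (0.0593 to 0.0676). Scarna2 had its lowest value without glutamine in replicate 3 and its highest value with glutamine in replicate 1, as most snoRNAs did, while in Scarna8 replicate 1 was the lowest of the cultures with glutamine.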

How the data were processed

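The authors deposited log2 levels that, per the submitters' processing notes, come from RMA in version 4.0 of the Transcriptome Analysis Console; its options, the annotation and the genome build were not stated. Values above 16 occur on every array, so changes are given in log2 units of the deposited scale and not as folds. Of 65956 rows, 31258 named 1 gene, 1492 several and 33206 none here. Symbols were updated through the RefSeq table of GRCm38.p6 (1138 rows), and 42 rows naming a snoRNA together with another gene were left out. Each of 30701 genes was tested with limma 3.58.1 (lmFit, eBayes, two-sided, no covariate) in R 4.3.3, adjusted over all genes. The code was tested on simulated data with 200 changed genes. Figures used matplotlib 3.10.9 in Python 3.11.15. The number of arrays, 3 per group, limits the precision of every value.

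The members and lists were chosen with earlier results of these data known. The text names, per class, up to 6 rises and 6 falls among members that passed without overlap, and the 3 members of highest mean. It also names a fixed set of snoRNAs, the particle genes, and listed small RNAs and cell type markers. Any other gene whose change is given is marked as chosen with its values in view. Hosts were to be matched by strand, which the table does not give. Alternatives were other scalings, filters, row rules, fits and arrays left out. No snoRNA sequence is printed.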

Additional observations from a re-analysis of the deposited data

How the results depend on the processing

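Class medians and counts depended on scaling and on single arrays. With centred arrays the median changes of all genes and of olfactory receptor genes were -0.095 and -0.058, with 1216 genes higher, 6128 lower, 1 H/ACA gene lower, and 4 receptor genes higher and 38 lower. Quantile normalization gave -0.048 and -0.0053, with 1455 genes higher, and 11 receptor genes higher and 20 lower. Centring on the receptor median gave -0.033 and 0.0043, with 1652 genes higher, 1 H/ACA gene lower, and 12 receptor genes higher and 19 lower. Genes above the background limit gave -0.037 and 0.21, with 1 H/ACA gene lower, and 11 receptor genes higher and 3 lower. Every row gave 0.11 over all rows, with 6773 higher, and 26 receptor rows higher and 6 lower. At adjusted p under 0.01, 801 genes were higher, 2143 lower, 0 C/D genes lower, and 2 receptor genes higher and 2 lower. Centring on the snoRNA median gave 1 C/D gene higher and 1 lower.

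Without replicate 1 with glutamine and replicate 3 without glutamine, the C/D median was 0.31, its difference from H/ACA 0.33 and from the receptors 0.21, a description only since these arrays were picked by the snoRNA values, with 1355 genes higher, 1893 lower, 8 C/D genes higher, 1 lower, and 15 receptor genes higher and 3 lower. Leaving out 1 array at a time gave C/D medians of -0.44 to 0.046 (the one positive value without replicate 3 lacking glutamine), H/ACA medians of -0.69 to -0.16, C/D minus H/ACA 0.00031 to 0.33, C/D minus receptors -0.53 to -0.048, H/ACA minus receptors -0.76 to -0.25, receptor medians 0.069 to 0.11, all-gene medians 0.051 to 0.065, 1395 to 2490 genes higher and 2666 to 4012 lower, 0 to 1 C/D genes higher and 1 to 2 lower, 0 to 2 H/ACA genes lower, and 13 to 42 receptor genes higher and 2 to 11 lower. The labels state no pairing by replicate number. Correlations of same-numbered deviations were 0.07, -0.23 and 0.28 over all genes and 0.29, -0.50 and 0.60 over the snoRNA members. With 3 arrays per group these values cannot tell whether the samples were paired. The replicate block gave 1 C/D gene higher (Snord61, limma, adjusted p = 0.0219), 2 C/D genes lower and 5 receptor genes lower. Of 1106 values of named genes under alternatives, 947 kept sign and side of the threshold, 44 lost a call, 30 gained one, and 85, with no call in either fit, had the other sign. Median signs of both snoRNA classes were negative under the other scalings, filters and row rules run, except that centring on the snoRNA median gave a C/D median of 0.0072. Interval half-widths of 0.19 to 2.15 with 3 arrays per group limit what can be said of small changes.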
